A study of Canis lupus familiaris with 55 samples.

Results

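The genes described here encode proteins of the mitochondrial ribosome, as read in RNA-seq libraries of canine embryonic gonads. Members were all loci of the transcript assembly whose gene name is MRPL or MRPS followed by a number and at most 1 letter. The rule found 64 of 58781 loci, under 62 gene names. Of these, 2 are second loci of *MRPL17* and *MRPS23* that lie on the opposite strand of the gene, and they were kept apart, which left 62 gene loci on 30 chromosomes or contigs. By name, 39 belong to the large subunit and 23 to the small one. *MRPL12*, *MRPL45* and *MRPS18C* were looked for and were not among the names found. Other names of the family, *MRPL9*, *MRPL16*, *MRPS14* and *MRPS16* among them, were absent as well, so the family is covered only in part.

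The study collected gonads between gestational d34 and d44 in a pedigree with XX disorder of sex development (XX DSD), in which XX embryos without the testis-determining gene *SRY* can develop testicular tissue. XX DSD gonads at risk came from an American cocker spaniel and beagle model pedigree and were homozygous or heterozygous for a guanine insertion on chromosome 9, and every XX embryo at d42-44 was homozygous. XY littermates carried the insertion too, as homozygotes or heterozygotes, and most of those at d42-44 were heterozygous. They were positive for *SRY* and form testes. Age-matched controls were wild-type beagles of both sexes. Each library was the gonad pair of 1 embryo, apart from 1 XX and 1 XY pool of d34 control gonads, which are described and were not tested.

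There were 9 XX DSD and 4 XY littermate libraries at d35. At d37-39 there were 8 XX DSD, 6 XX control, 5 XY littermate and 6 XY control libraries. The oldest group held 6 XX DSD, 3 XX control, 3 XY littermate and 3 XY control libraries. It is called d42-44 here, although 2 XX DSD libraries and 1 XY littermate library in it are labelled d41 and are listed by the study under an earlier age. All its controls were d44 embryos of 1 litter. Only 1 of its XX DSD libraries and no XY littermate library was of d44, so age differs there as well and cannot be told apart from pedigree. Controls at d37-39 came from 2 litters, and XX DSD libraries from 4 litters at each age. Libraries were pooled for sequencing by group, so that pedigree, litter and sequencing pool cannot be told apart where XX DSD gonads are compared with controls. Which pool the XY littermates were in was not stated.

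Mitochondria keep their own ribosome, which translates the few mRNAs of the mitochondrial genome into core subunits of the respiratory chain and ATP synthase. Its RNAs are encoded in the organelle, whereas all its proteins are encoded in the nucleus, made in the cytosol and imported. Part of these proteins have counterparts in the bacterial ribosome, and the others were added in the mitochondrial lineage. In the gonad, mitochondria are also the site of the first step of steroid synthesis.

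Values are FPKM (the fragment count of a locus scaled by transcript length and by the depth of the library). Differences are on the log2(FPKM + 1) scale with their standard errors (SE), and were tested with limma over all loci that averaged 1 FPKM or more in one of the groups. A locus was called higher or lower at a Benjamini-Hochberg adjusted p under 0.05. A 2-fold call also required that the means differed by a factor of 2 or more, the larger one reaching 4 FPKM.

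Most of these genes were expressed well above the typical gene. The median member stood at the 82.8th percentile of named loci with a mean of at least 1 FPKM, and 57 of 62 members lay above the median of those loci. The highest mean belonged to *MRPL20* at 279 FPKM, but that locus also holds *AURKAIP1* and *CCNL2*. Next came *MRPS21* at 184 FPKM, *MRPS9* at 154 FPKM, *MRPL52* at 143 FPKM and *MRPL27* at 119.5 FPKM, which are levels per length of transcript. At the low end, *MRPS24* was listed at 0 in all 55 libraries and *MRPL33* had a mean of 0.177 FPKM. Both are single-exon loci at other positions than the reference list of dog genes gives for these symbols, and neither passed the filter. The remaining 60 members were tested in every comparison, and their lowest mean was that of *MRPS34*, 5.21 FPKM.

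Several values cannot be assigned to a member alone. The library kit does not mark strand, and 21 members share at least 10% of their exon bases with a locus on the other strand. The overlap was 100% for *MRPS34*, within exons of *MAPK8IP3*, and for *MRPL24*. It was 73% for *MRPS12*, with *FBXO17*, 67.3% for *MRPL18*, with *TCP1*, and 44.6% for *MRPL27*, with *EME1*. Among the 62 members 6 share their locus with another gene name, and *MRPL2* is in both sets. *MRPS36* was a single-exon locus on chromosome 5, whereas the reference list puts this symbol on another chromosome, so its reads may come from a copy, which was not tested.

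The level of the family as a whole was read from its median in each library. The median of log2(FPKM + 1) over the 62 genes was 5.28 to 5.43 in XX controls and 5.07 to 5.33 in XX DSD gonads at d37-39, and these ranges overlapped. At d42-44 it was 5.36 to 5.43 in XX controls and 5.14 to 5.25 in XX DSD gonads, and the groups did not overlap. In XY gonads of the same age the XY littermates lay between 5.03 and 5.21 and the controls between 5.49 and 5.65, again without overlap. The median of named loci with a mean of at least 1 FPKM also differed in XX gonads of d42-44. It was 3.58 to 3.63 in XX DSD gonads and 3.72 to 3.77 in XX controls. Relative to it, members stood 1.52 to 1.66 higher in XX DSD gonads and 1.59 to 1.71 higher in XX controls, which overlapped. In XY gonads they stood 1.331 to 1.577 higher in littermates and 1.764 to 1.999 higher in controls. The widest spread was in XX DSD gonads at d35, from 5.0 to 5.99, and the highest of these was embryo C3575. That library also stood apart in its summed FPKM, which was 6956519 against 736387 to 2423797 in the other libraries. The XX and XY pools of d34 had medians of 5.29 and 5.59.

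**Figure D1:**
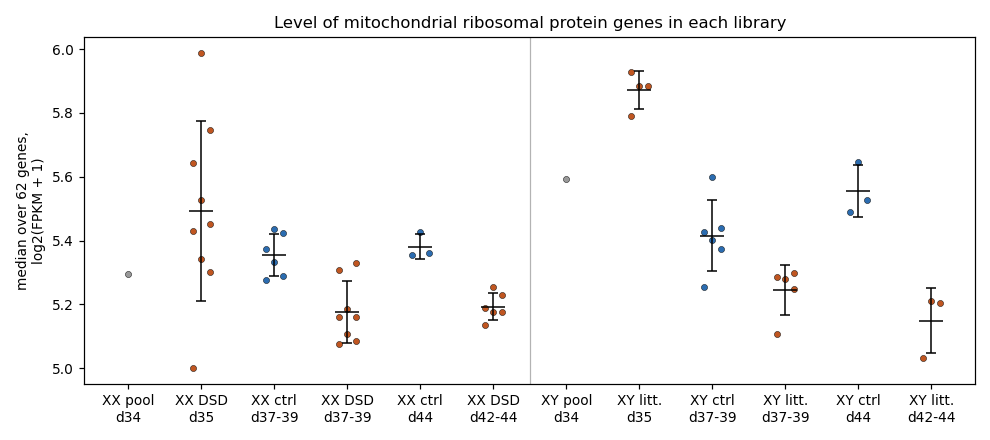
Median log2(FPKM + 1) over the 62 mitochondrial ribosomal protein genes in each library (points), by group, with XX groups on the left and XY groups on the right. Horizontal lines are group means with bars of 1 SD, orange marks the model pedigree, blue the controls and grey the d34 pools, and at d42-44 the XX DSD libraries (5.14 to 5.25) lie below the XX controls (5.36 to 5.43). The median of named loci was also lower in these XX DSD libraries.

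The oldest gonads gave the largest number of differences. At d42-44, 31 of the 60 members tested were lower in XX DSD gonads than in XX controls and 15 were higher. Among all loci tested, 29.2% were lower and 19.3% higher. Among named loci that reached 10 FPKM in one of the groups, which are expressed more like the members, 43.9% were lower and 29.5% higher, against 50.8% and 25.4% of the 59 members at that level. The member shares were thus near those of other well-expressed genes, and nothing is read from the counts alone. The median difference was -0.28 for the members, -0.12 for well-expressed named loci and -0.09 for all loci.

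*MRPL27*, the counterpart of a bacterial protein beside the peptidyl transferase centre, had the lowest adjusted p. It lies at chr9:26336487-26342457 on the minus strand of CanFam3. Its values in XX DSD gonads at d42-44 had a minimum of 77.8, a median of 80.9 and a maximum of 85.3 FPKM, and in XX controls they were 141, 142 and 147 FPKM. The difference was -0.82 ± 0.04 (SE), with limma's Benjamini-Hochberg adjusted p of 4.1e-06. All 6 at-risk gonads lay below all 3 controls, and the means were 81.0 ± 2.8 (SD, n = 6) and 143 ± 3.0 (SD, n = 3).

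*MRPL38*, a mitochondria-specific protein of the central protuberance of the large subunit, lies at chr9:4706404-4713856. It was at 11.6, 13 and 13.7 FPKM (lowest, median and highest) in XX DSD gonads and at 25.7, 26.9 and 27.9 FPKM in the 3 XX controls. The groups were apart by -1.01 ± 0.06 (limma, adjusted p = 4.3e-06) without overlap. *MRPL38* is 1 of the 5 members that also passed the 2-fold call, with *MRPS34*, *MRPL36*, *MRPL54* and *MRPS2*. That is 5 of 60, where 5.02% of all loci tested were lower by this call.

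*MRPL54*, a mitochondria-specific protein of the large subunit, ranged from 22.1 to 27.5 FPKM with a median of 26.0 in XX DSD gonads and was 52.3, 54.2 and 61.2 FPKM in controls. It fell by 1.10 on the log2 scale. *MRPL55*, another such protein, had a median of 51.5 FPKM (47.8 to 59.5) against 92.9, 102 and 107 FPKM. In the small subunit, *MRPS26* had a median of 52.1 FPKM (47.7 to 54.2) against 85.4, 91.0 and 91.5 FPKM, a difference of -0.77. For each of these genes every at-risk gonad was below every control. That was common at these group sizes: 45 of the 60 members did not overlap, 32 of them lower and 13 higher. The share over all loci was not counted, so nothing is read from a lack of overlap.

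*MRPL4*, the uL4 protein that lines the peptide exit tunnel, had a median of 47.6 FPKM (44.0 to 51.3) in XX DSD gonads and 69.3, 72.1 and 72.6 FPKM in controls. Its difference of -0.58 ± 0.05 (limma, adjusted p = 1.9e-05) became -0.04 and no longer passed after correction for gene density, described further on. The calls of *MRPL27*, *MRPL38*, *MRPS26*, *MRPL54*, *MRPL55*, *MRPL50*, *MRPS31* and *MRPS10* held under the alternatives that kept more than 1 control value, single libraries left out included. The controls of this age are 1 litter, which no alternative could leave out.

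*MRPS34*, a mitochondria-specific protein of the small subunit, had the lowest value of any tested member and the largest difference. It was at 1.62, 2.13 and 3.06 FPKM (lowest, median and highest) in XX DSD gonads and at 6.74, 7.28 and 7.76 FPKM in controls, -1.40 ± 0.14. *MAPK8IP3*, whose exons on the other strand cover it, was also lower, with means of 5.77 and 11.3 FPKM and a difference of -0.86. Reads of the pair cannot be told apart, so the *MRPS34* value is uncertain. *MRPS12*, whose protein belongs to the decoding centre, had a median of 30.6 FPKM (24.1 to 36.8) against 56.9, 59.8 and 60.3 FPKM, a difference of -0.92. Its overlap partner *FBXO17* differed by -0.22, with an adjusted p of 0.11.

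*MRPS18A* and *MRPS18B* are related to the same bacterial protein, although *MRPS18A* protein sits in the large subunit. *MRPS18A* was 43.3 to 51.5 FPKM in XX DSD gonads and 67.5, 67.9 and 71.8 FPKM in controls, -0.54 ± 0.06. *MRPS18B* was 35.5 to 41.1 FPKM against 43, 46.8 and 53.0 FPKM, -0.30 ± 0.07 (limma, adjusted p = 0.0083). Both were called lower without overlap.

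Among the 15 higher members, *MRPL50* came first. This mitochondria-specific gene of the large subunit ranged from 32.0 to 41.2 FPKM with a median of 34.9 in XX DSD gonads, whereas XX controls were at 17.8, 19.5 and 20.1 FPKM. The difference was 0.85 ± 0.08 (limma, adjusted p = 2.5e-05). *MRPS31*, a mitochondria-specific gene of the small subunit, had a median of 47.9 FPKM (45.1 to 50.9) against 30.4, 34.4 and 35.1 FPKM, a difference of 0.52. *MRPS10*, the counterpart of bacterial S10, had a median of 57.8 FPKM (50.04 to 58.5) against 39.5, 39.9 and 40.1 FPKM, a difference of 0.48. All 3 genes were higher in every at-risk gonad than in any control. Smaller increases, down to 0.22 for *MRPL51*, were found in *MRPL1*, *MRPL3*, *MRPL13*, *MRPL19*, *MRPL22*, *MRPL42*, *MRPL44*, *MRPL47*, *MRPS30*, *MRPS35* and *MRPS36*.

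**Figure D2:**
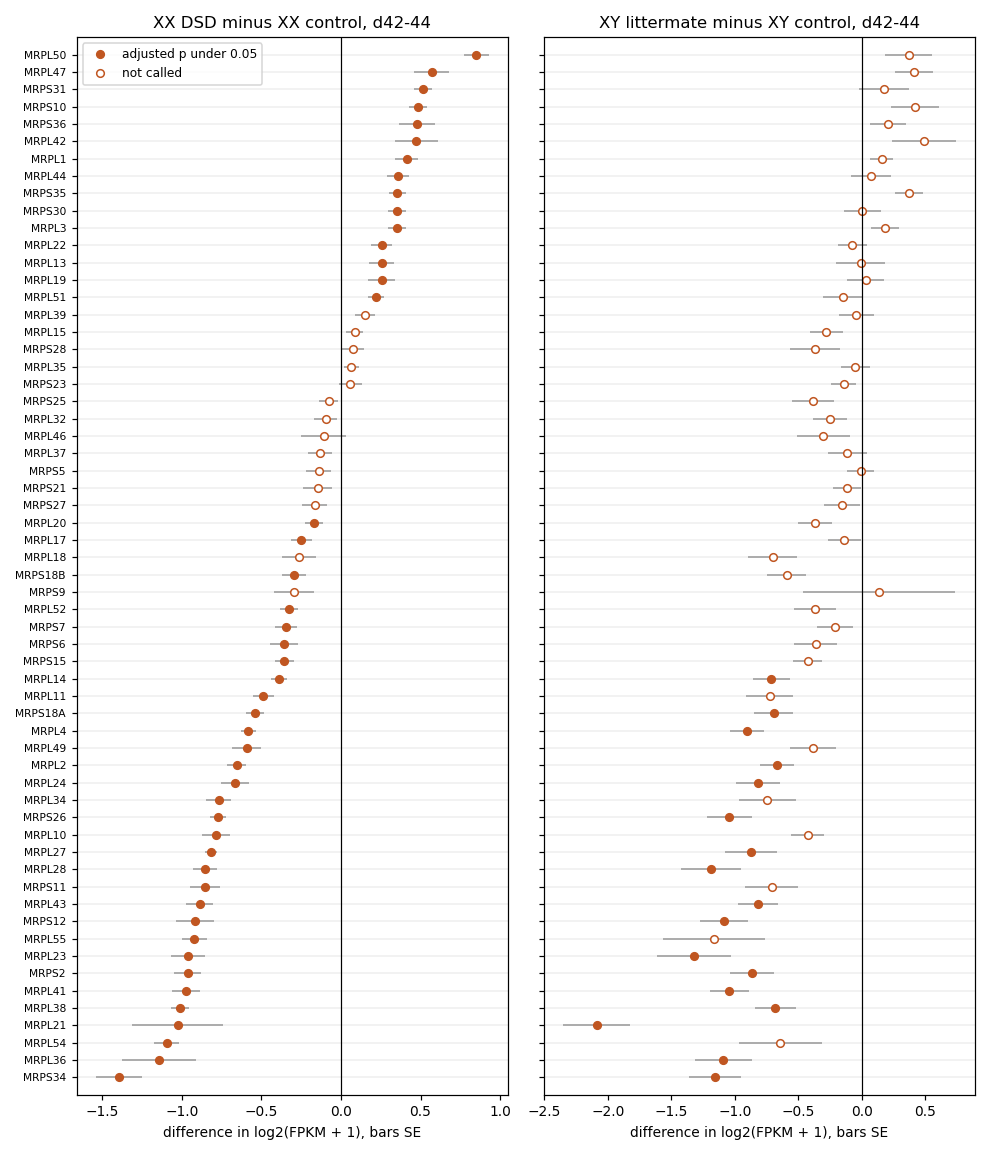
Difference in log2(FPKM + 1) of each of the 60 tested members between model pedigree and control gonads at d42-44, for XX gonads (left) and XY gonads (right), in the order of the XX difference. Bars are SE and filled points have an adjusted p under 0.05: 31 lower and 15 higher in XX gonads, 17 lower and 0 higher in XY gonads.

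Members of both subunits were called in each direction. Of the large subunit names, 21 of 38 tested were lower and 10 higher, with a median difference of -0.30, and of the small subunit names 10 of 22 were lower and 5 higher, with a median of -0.23. Members with a bacterial counterpart had 22 of 36 lower and 7 higher, with a median of -0.35. Mitochondria-specific members had 9 of 24 lower and 8 higher, with a median of -0.09. These groups were not tested against each other. The 39 members that share less than 10% of their exon bases with another locus had 18 lower and 13 higher, and the 21 with more overlap had 13 lower and 2 higher. The 2 opposite-strand loci were both higher, at 15.9 against 8.78 FPKM beside *MRPL17* and 13.8 against 10.03 FPKM beside *MRPS23*.

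Other measures differed between these groups too. Relative depth was 0.237 to 0.295 in the 6 XX DSD libraries and 0.616 to 0.865 in the 3 controls. For C3694, at 0.279, estimates against different libraries ran 1.01 apart on the log2 scale. All 6 pre-granulosa markers were found, and their summed FPKM was 85.7 to 119 in XX DSD gonads and 196.97 to 211 in controls. The sum of the 5 Sertoli markers found was 482 to 786 against 905 to 964 FPKM, and 2019 to 3648 FPKM in XY controls of d44. XX controls are ovaries and the sum was not split by gene, so it is not read as an amount of Sertoli cells. The part of depth and of these markers in the member differences was not tested, and in bulk tissue fewer cells of a type and less RNA per cell cannot be told apart.

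At d37-39, fewer members differed. Of 60, 15 were lower and 2 higher in XX DSD gonads than in XX controls, where 8.11% of all loci tested were lower and 5.65% higher. Among named loci reaching 10 FPKM, 13.5% were lower and 12.4% higher, against 23.7% and 3.39% of members at that level. The median difference was -0.11 for members, 0.00 for well-expressed named loci and 0.09 for all loci. Under quantile normalization 30 members were lower and 0 higher, where 12.8% of all loci were lower and 1.1% higher. With a random effect of litter 8 were lower and 0 higher, and 0 passed with 1 value per litter.

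*MRPS34* had the lowest adjusted p at this age. XX DSD gonads were at 0.865, 1.44 and 2.36 FPKM (lowest, median and highest) and XX controls at 3.67, 4.87 and 5.78 FPKM, a difference of -1.21 ± 0.16 (limma, adjusted p = 0.00028). The groups did not overlap, but *MAPK8IP3* on the other strand was also lower, by -0.75. *MRPL23*, which like *MRPL24* stands at the exit of the peptide tunnel, was at 59.5, 73.6 and 96.9 FPKM against 113, 119 and 138 FPKM, -0.68 ± 0.10 (limma, adjusted p = 0.00086). *MRPS12* was at 22.3, 33.1 and 45.7 FPKM against 47.0, 57.7 and 62.5 FPKM, -0.78 ± 0.13 (limma, adjusted p = 0.0017).

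*MRPL41*, a mitochondria-specific protein of the large subunit, was at 21.7, 32.9 and 44.3 FPKM in XX DSD gonads and 51.1, 59.5 and 66.0 FPKM in controls, a difference of -0.90. *MRPL27* was at 84.0, 101 and 113 FPKM against 114, 139 and 152 FPKM, -0.47. *MRPS11*, the counterpart of bacterial S11, was at 19.4, 26.6 and 30.7 FPKM against 33.2, 35.7 and 43 FPKM, -0.52. None of the 3 overlapped between groups, although the *MRPL27* ranges nearly met. Of all 60 members, 7 did not overlap at this age, a share not counted over all loci.

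The 2 higher members were *MRPL44*, which carries a fold related to RNase III, and *MRPL47*, the counterpart of bacterial L29. *MRPL44* was at 21.7, 22.6 and 25.3 FPKM against 17.3, 19.4 and 20.9 FPKM, 0.26 ± 0.06. *MRPL47* was at 19.7, 22.2 and 24.7 FPKM against 15, 17.3 and 21.1 FPKM, 0.32 ± 0.08, and its groups overlapped. Neither passed under median scaling, quantile normalization or the litter block. *MRPL38*, called at d42-44, was at 10.6 to 29.1 FPKM in XX DSD gonads at d37-39 and 22.9 to 26.9 FPKM in controls, and did not pass the test (limma, adjusted p = 0.31).

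The XX DSD and XX control libraries of d37-39 and d42-44 are different embryos. Of the 15 members lower at d37-39, 14 (93.3%) were also lower at d42-44, and they made up 45.2% of the 31 lower there. Among well-expressed named loci as a whole, 43.9% were lower at d42-44. The fifteenth was *MRPS9*, which at d42-44 differed by -0.30 (limma, adjusted p = 0.078). *MRPL44* and *MRPL47* were higher at both ages. Of the 31 members lower at d42-44, 28 had a negative difference at d37-39, with a median of -0.34. Such overlaps were not counted over all loci, so nothing particular to these genes is read from them.

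**Figure D3:**
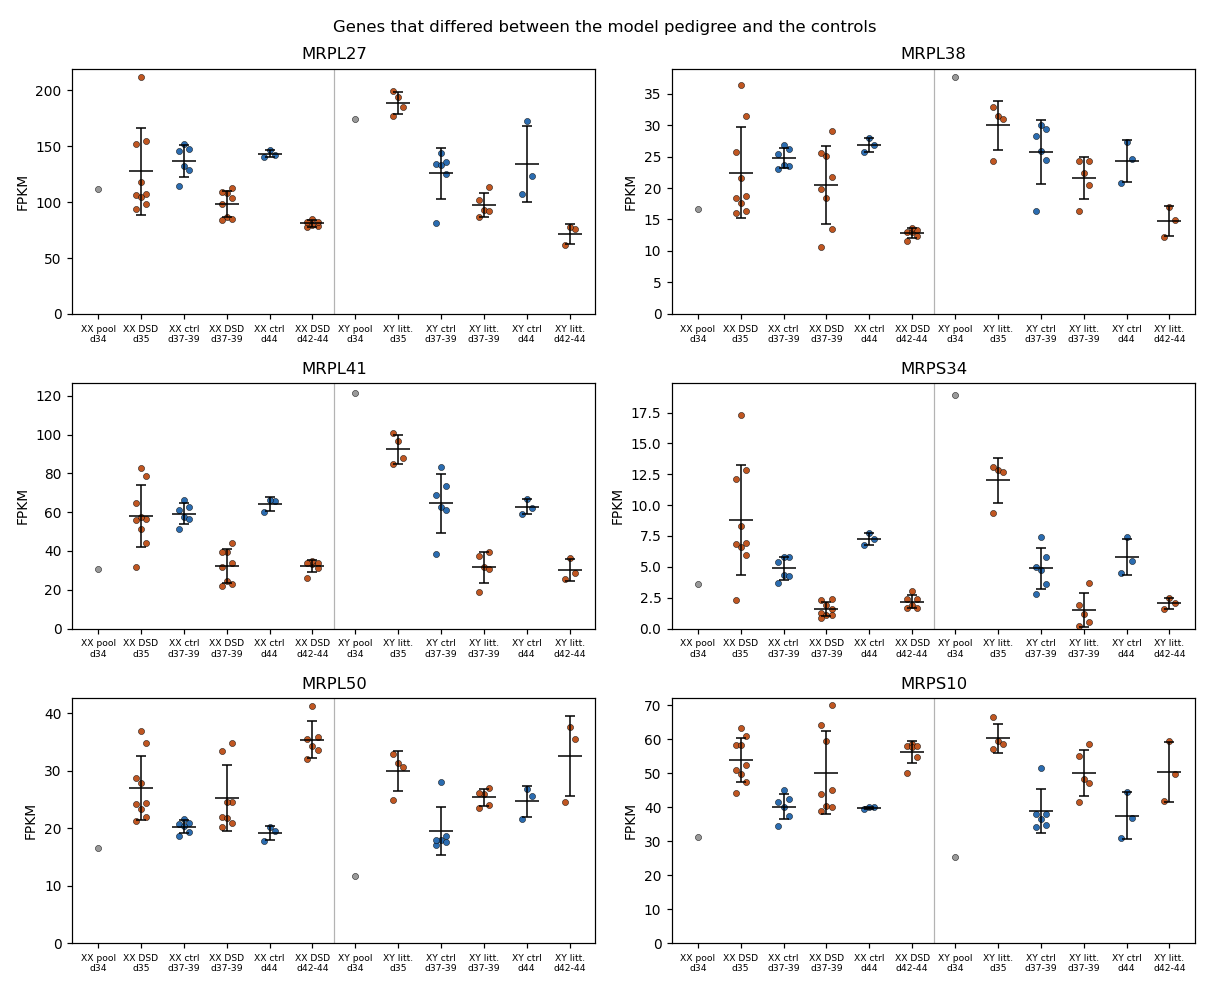
FPKM of *MRPL27*, *MRPL38*, *MRPL41*, *MRPS34*, *MRPL50* and *MRPS10* in each library (points), by group, with XX groups left and XY groups right of the grey line. Horizontal lines are means with bars of 1 SD, and orange marks the model pedigree, blue the controls and grey the pools. *MRPL27* in XX DSD gonads at d42-44 (77.8 to 85.3) lies below the controls (141 to 147), and *MRPL50* (32.0 to 41.2) above them (17.8 to 20.1).

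XY littermates were compared with XY controls because they share the pedigree with XX DSD gonads and carry the insertion, but develop testes. Most XY littermates at d42-44 were heterozygous for it, whereas the XX DSD embryos of that age were homozygous. At d42-44, 17 of 60 members were lower and 0 higher in XY littermates, where 8.58% of all loci were lower and 2.63% higher. Among named loci reaching 10 FPKM, 15.1% were lower and 4.12% higher, against 27.1% and 0% of members. By the 2-fold call 8 members were lower, where 2.92% of all loci were. Relative depth was 0.253 to 0.295 in the littermates and 0.403 to 0.59 in the controls, and its part was not tested. These calls rested on few libraries: 0 members passed without the d41 littermate C3691, 0 without littermate C3518, 3 without littermate C3522, and 0 without control A1106 or control A1108. With litter as a random block 28 passed, but the correlation within litters was estimated at -0.25. A negative value narrows the SE of a difference between groups that share no litter, so no strength is read from this rise. With 1 value per litter a single control value was left, so that count is not read. Without the filter on low values or without limma's trend, 0 passed.

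*MRPL21*, the counterpart of bacterial L21, showed the largest difference in these gonads. XY littermates were at 10.1, 15 and 18.0 FPKM and XY controls at 49.7, 60.8 and 82.3 FPKM, -2.09 ± 0.26 (limma, adjusted p = 0.028). In XX gonads of this age *MRPL21* was at 15.7 to 36.6 FPKM in the model pedigree and 48.8, 48.8 and 63.2 FPKM in controls, -1.03 ± 0.29. It lies at chr18:49090704-49104636. All at-risk and littermate gonads were thus below all controls of their sex.

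*MRPL41* was at 25.5, 28.5 and 36.6 FPKM in XY littermates and 59.2, 62 and 66.9 FPKM in XY controls, -1.04. *MRPL4* was at 27.1, 27.7 and 33.5 FPKM against 51.9, 52.9 and 63.5 FPKM, -0.91. *MRPS26* was at 34, 39.2 and 47.3 FPKM against 72.5, 78.4 and 101 FPKM, -1.04. Each of the 3 was apart without overlap, and so were *MRPS12* (21, 21.9 and 28.4 against 44.2, 46.4 and 64.9 FPKM) and *MRPS34* (1.58, 2.09 and 2.44 against 4.53, 5.46 and 7.43 FPKM). With 3 libraries on each side, 32 of the 60 members did not overlap, 28 of them lower and 4 higher. The share over all loci was not counted. *MRPS9* was split within the group, with 1 XY littermate library at 486 FPKM and the others at 103 and 108 FPKM.

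At d37-39, 2 members were lower and 0 higher in XY littermates, where 0.885% of all loci tested were lower and 0.402% higher. *MRPL21* was at 24.5, 26.2, 26.6, 27.1 and 39.6 FPKM in littermates and at 41.6, 44.3 and 58.4 FPKM (lowest, median and highest) in controls, -0.68 ± 0.13. The groups did not overlap. *MRPL41* was at 18.9, 30.5, 31.6, 37.5 and 39.4 FPKM against 38.3, 65.9 and 83.4 FPKM, -1.01 ± 0.22 (limma, adjusted p = 0.049), and 1 littermate was above the lowest control. With single libraries left out, 13 members were lower and 5 higher without control A1095, where 4.27% of all loci were lower and 3.02% higher. Without littermate C3516, 5 were lower and 2 higher, where 1.46% and 0.995% of loci were, and 0 passed without any one of the other libraries.

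The XX and XY comparisons at d42-44 share no library, but they share litters and are not independent. Their controls are littermates, and every XY littermate came from a litter that also gave XX DSD gonads of this group. All 17 members lower in XY littermates were among the 31 lower in XX DSD gonads, which is 54.8% of the latter. Of well-expressed named loci, 43.9% were lower in XX DSD gonads. Each of the 31 had a negative difference in XY gonads, with a median of -0.72. Of the 15 members higher in XX DSD gonads, 12 had a positive difference in XY gonads and 0 passed the test there. At d37-39 both members lower in XY littermates were lower in XX DSD gonads as well. These overlaps were not counted over all loci either.

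The difference between the XX change and the XY change was tested as an interaction over the 4 groups of an age. At d42-44, 0 of 60 members passed with limma, 12 had an unadjusted p under 0.05 and the lowest adjusted p was 0.254, for *MRPL15*. Among all loci 0.0749% passed below 0 and 0.0397% above. At d37-39, 0 members passed, 1 had an unadjusted p under 0.05 and the lowest adjusted p was 0.675, where 0.00514% of all loci passed below 0 and 0% above. Differences between the sexes in the response of these genes were therefore not detected, with SEs of 0.12 for *MRPL15* and 0.15 for *MRPL38* at d42-44. Sex and the dose of the insertion cannot be told apart at d42-44, where most XY littermates were heterozygous.

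Controls of the 2 sexes were compared to ask how ovary and testis differ in normal gonads. At d37-39, 10 of 60 members were lower and 3 higher in XX than in XY controls, where 13.8% of all loci were lower and 12.7% higher. At d44, 9 were lower and 2 higher, where 12% were lower and 12.8% higher. The member shares were 16.7% and 5% at d37-39 and 15% and 3.33% at d44. Under quantile normalization the split at d37-39 turned to 4 lower and 6 higher, with d39 embryos alone it was 2 and 2, and under median scaling 5 and 3. At d44, 7 members passed without XX control A1107 and 6 without XX control A1110, all of them lower. Without XY control A1106, 8 were lower and 8 higher, where 14.5% of all loci were lower and 16.3% higher, so the split between directions rested on that library. With litter as a fixed factor over the 2 litters of d37-39, each of which held both sexes, 9 members were lower and 3 higher.

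Leydig and steroidogenesis markers, of which 5 of 6 were found, differed between these gonads as their labels have it. Their summed FPKM was 407 to 2446 in XX and 4496 to 8687 in XY controls at d37-39, and 338 to 535 in XX and 9634 to 10569 in XY controls at d44. Their part in the member differences was not tested.

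Most calls were made at both ages, in different embryos. *MRPL19*, *MRPL22*, *MRPL39*, *MRPL44*, *MRPS31*, *MRPS35* and *MRPS36* were lower in XX gonads at d37-39 and at d44, which is 70% of the first list and 77.8% of the second. *MRPL4* was higher at both. Among well-expressed named loci, 20.2% were lower in XX gonads at d37-39 and 17.5% at d44, and their overlap was not counted.

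*MRPS31* lies at chr25:520383-581859. XX controls at d37-39 were at 34.3, 35.7 and 40.7 FPKM (lowest, median and highest) and XY controls at 46.8, 54.6 and 66.7 FPKM, -0.57 ± 0.08 (limma, adjusted p = 0.00017). At d44 XX controls were at 30.4, 34.4 and 35.1 FPKM and XY controls at 51.5, 59.9 and 64.8 FPKM, -0.80 ± 0.11 (limma, adjusted p = 0.0041). The sexes did not overlap at either age. *MRPS35*, also of the small subunit, shares its locus with *PPFIBP1*. It was at 35.5 to 48.3 FPKM in XX and 47.5 to 57.7 FPKM in XY controls at d37-39, and at 34.8, 36.4 and 39.1 against 48, 55.2 and 56.3 FPKM at d44.

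*MRPL1*, whose bacterial counterpart forms the mobile L1 stalk, was at 19.2, 19.8 and 20.1 FPKM in XX and 27.7, 29.0 and 29.3 FPKM in XY controls at d44, -0.52 ± 0.06 (limma, adjusted p = 0.0028). At d37-39 it was at 20.4 to 26.5 and 24.5 to 32.5 FPKM and did not pass the test. *MRPL19*, the counterpart of bacterial L19, was at 14.7, 15.9 and 16.8 against 21.8, 22.4 and 24.4 FPKM at d44, -0.51. *MRPL39*, a mitochondria-specific large subunit protein, was at 44.7, 48.7 and 50.4 against 62.8, 65.5 and 68.6 FPKM, -0.45. The sexes did not overlap for these 3 genes at d44. Of the 60 members, 27 did not overlap at d44 and 6 at d37-39, shares not counted over all loci.

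*MRPS6*, the counterpart of bacterial S6, was lower in XX controls at d37-39, at 46.4 to 56.5 against 62.1 to 72.9 FPKM, -0.39 ± 0.06, and did not pass the test at d44 (limma, adjusted p = 0.10). *MRPS36* was lower at both ages, by -0.48 and -0.50, with the doubt on its locus given above, and its protein has since been assigned to the alpha-ketoglutarate dehydrogenase complex.

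Of the higher members, *MRPL4* was at 54.6 to 72.7 FPKM in XX and 39.4 to 51.0 FPKM in XY controls at d37-39, 0.51 ± 0.08 (limma, adjusted p = 0.00051). At d44 it was at 69.3, 72.1 and 72.6 against 51.9, 52.9 and 63.5 FPKM, 0.35 ± 0.10 (limma, adjusted p = 0.047), a call that did not hold under median scaling (adjusted p = 0.115). *MRPL13* and *MRPL46* were higher in XX controls at d37-39, by 0.29 and 0.23. *MRPL10*, at the base of the stalk that binds translation factors, was higher at d44, with 38.7, 40.7 and 44.0 against 28.2, 30.7 and 32.2 FPKM, 0.43. The *MRPL10* locus also holds *OSBPL7*.

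XX controls at d44 enter both this comparison and the one with XX DSD gonads, so the lists cannot be set against each other. *MRPS31* and *MRPL50*, chosen after their values were seen, show the values side by side. At d44 it was at 30.4 to 35.1 FPKM in XX controls and 51.5 to 64.8 in XY controls, and at d42-44 at 45.1 to 50.9 in XX DSD gonads and 50.6 to 81.3 in XY littermates. XX DSD gonads thus lay between XX and XY controls in this gene. *MRPL50*, by contrast, was at 17.8 to 20.1 FPKM in XX controls, 21.6 to 26.9 in XY controls, 32.0 to 41.2 in XX DSD gonads and 24.6 to 37.6 in XY littermates, so that XX DSD gonads lay above the controls of both sexes.

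**Figure D4:**
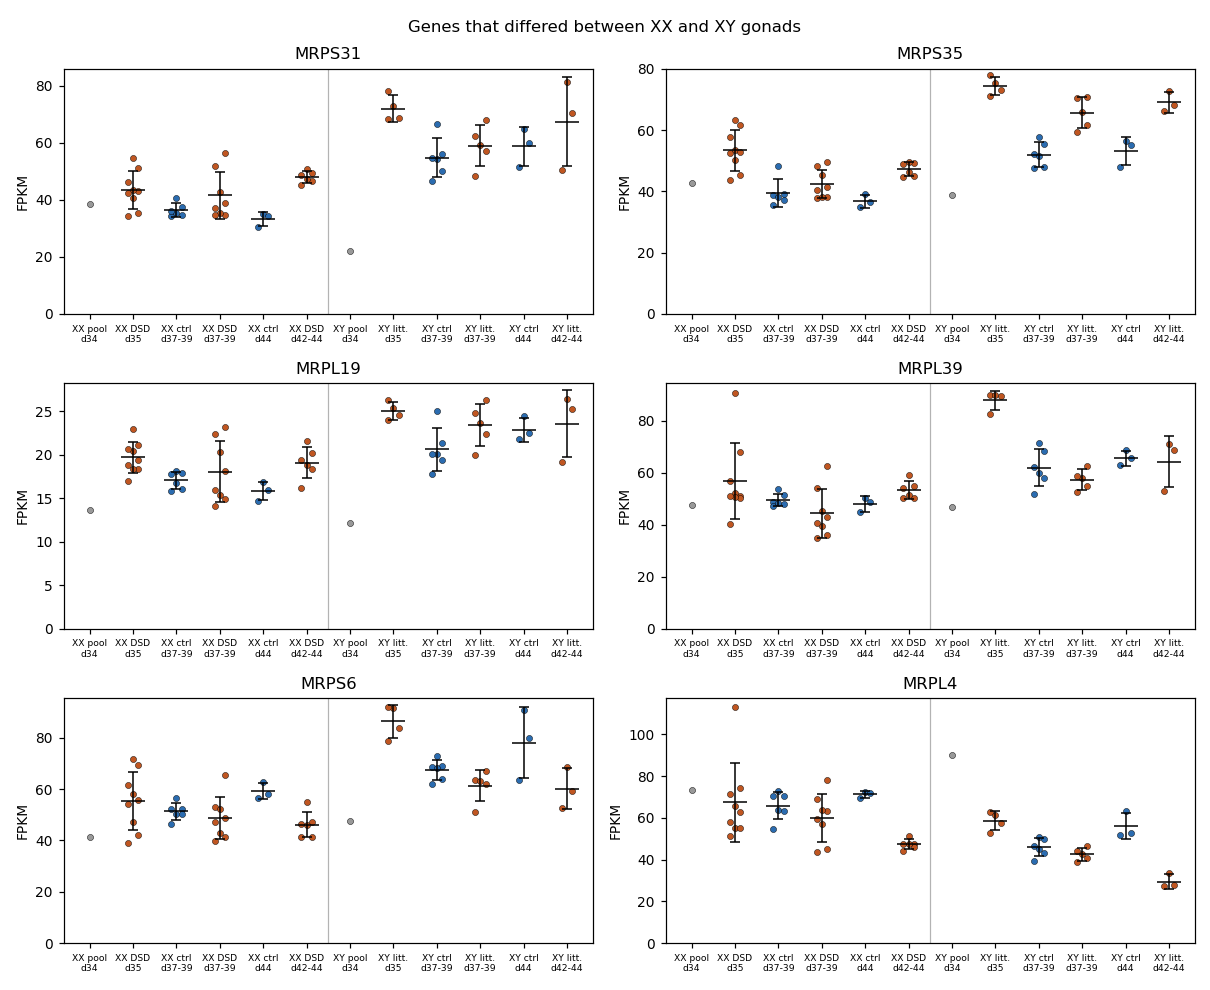
FPKM of *MRPS31*, *MRPS35*, *MRPL19*, *MRPL39*, *MRPS6* and *MRPL4* in each library (points), by group, with XX groups left and XY groups right of the grey line. Horizontal lines are means with bars of 1 SD, and orange marks the model pedigree, blue the controls and grey the pools. *MRPS31* in XX controls at d44 (30.4 to 35.1) lies below XY controls (51.5 to 64.8), and *MRPL4* (69.3 to 72.6) above them (51.9 to 63.5).

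At d35, before controls of single embryos begin, XX DSD gonads were compared with XY littermates. Of 60 members, 15 were lower and 0 higher in XX gonads, where 13.1% of all loci were lower and 8.3% higher. Among named loci reaching 10 FPKM 20.4% were lower and 7.36% higher, against 25% and 0% of members. The difference was negative for 59 of 60 members, with *MRPL4* the exception at 0.16, and for 66.9% of these well-expressed loci. The median was -0.34 for members and -0.15 for well-expressed loci.

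These counts turned on single libraries. Without XX DSD embryo C3575, which stood apart above, 42 of 60 members (70%) were lower, where 18.4% of all loci tested and 29.9% of well-expressed named loci were, and the median difference was -0.43. Without XY littermate C3619 7 members passed, without C3618 8, and with 1 value per litter 2. The XX gonads came from 4 litters, of which 2 also held the XY littermates. Within those 2 litters, with litter as a fixed factor over 5 XX and 4 XY gonads, 3 members were lower and 0 higher, where 3.91% of all loci were lower and 2.44% higher. These were *MRPS31*, *MRPS35* and *MRPS6*, and the difference was negative for 57 of 60 members, with a median of -0.25. Erythroid markers, of which 5 of 6 were found, summed to 63.7 to 504 FPKM in XX DSD and 151 to 227 FPKM in XY littermate gonads at d35, and their part was not tested. All XX libraries had pre-granulosa sums of 58.3 to 126 FPKM, above those of the XY littermates at 13.7 to 25.9 FPKM, as their labels have it.

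*MRPS31* again had the lowest adjusted p. XX DSD gonads were at 34.2, 43.3 and 54.7 FPKM (lowest, median and highest) and XY littermates at 68.2, 68.8, 72.8 and 78.2 FPKM, -0.73 ± 0.12 (limma, adjusted p = 0.0006). *MRPS35* was at 43.7, 52.9 and 63.3 against 71.3, 73.1, 75.5 and 77.9 FPKM, -0.48 ± 0.10 (limma, adjusted p = 0.0036). *MRPS6* was at 39.1, 55.6 and 71.5 against 78.7, 83.6, 91.7 and 91.8 FPKM, -0.66. Every XX gonad was below every XY gonad in all 3 genes, C3575 included. Of the 60 members, 5 did not overlap here, a share not counted over all loci.

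*MRPL18*, the counterpart of the bacterial protein that binds 5S rRNA, was at 36.9, 43.4 and 67.2 against 65.6, 69.9, 72.2 and 74.6 FPKM, -0.63. Its exon bases are shared with *TCP1* to a large part. *MRPL19* was at 17.0, 19.4 and 23.0 against 23.9, 24.5, 25.3 and 26.3 FPKM, -0.34, and *MRPS5*, the counterpart of bacterial S5, was lower by -0.43. *MRPL18* and *MRPS5* overlapped between groups and *MRPL19* did not. With no library in common, *MRPL19*, *MRPL39*, *MRPS31* and *MRPS35* were lower in XX gonads here and in both comparisons of controls. The same overlap was not counted over all loci.

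Controls of d44 were compared with those of d37-39 to follow the members with age. In XX controls 0 of 60 members were called lower and 0 higher with limma, 12 had an unadjusted p under 0.05, and 0.646% and 1.96% of all loci were called. In XY controls 0 were called in either direction, 3 had an unadjusted p under 0.05, and 0.0691% of all loci were called in each direction. Differences of the members ran from -0.44 to 0.51 in XX and from -0.25 to 0.44 in XY controls.

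Across all comparisons, 52 of 60 tested members (86.7%) were called at least once and 10 (16.7%) in 4 or more, among them *MRPL41* in 5. Of 7528 named loci that averaged 10 FPKM or more and were tested throughout, 90.8% were called at least once and 17.3% in 4 or more, so the member shares were near the background. *MRPL15*, *MRPL35*, *MRPL37*, *MRPS21*, *MRPS23*, *MRPS25*, *MRPS27* and *MRPS28* were called in none.

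The direction of the difference went with the surroundings of a gene on its chromosome. Gene density was counted as the annotated loci within 500 kb. In XX DSD gonads at d42-44, the 31 lower members had a median of 35 loci in that window, the 15 higher ones 8 and the 14 not called 13. Across the 60 members, the Spearman correlation of density with the difference was -0.61, and across 13609 named loci it was -0.46. In XY gonads of this age it was -0.59 for members and -0.45 for named loci, and in XX gonads at d37-39 -0.28 and -0.35. These are descriptions across genes, which share libraries and neighbourhoods and are not independent.

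After a correction for density, XX DSD gonads at d42-44 had 22 lower and 14 higher members, where 20.8% of all loci were lower and 20% higher. Those of d37-39 had 12 lower and 5 higher, where 5.83% and 7.42% of loci were. In XY littermates at d42-44, 1 member was lower, where 1.93% of loci were. Between control groups the values differed by comparison. Between XX and XY controls at d44 the correlation was 0.63 across members and 0.10 across 13771 named loci, and the 9 lower members had a median density of 8. Between d44 and d37-39 XX controls it was 0.59 and 0.16. Both of these share the 3 d44 XX controls with the XX comparison of d42-44, where they are subtracted, so their signs are not set against it. Without these libraries, the correlation was 0.35 across members and 0.03 across named loci between XX and XY controls at d37-39, and 0.10 and 0.01 between d44 and d37-39 XY controls. What underlies the relation to density was not tested. The members' own transcripts were short, with a median of 2155 bases against 4385 for named loci, and their median density of 18.5 was near the 16 of named loci.

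**Figure D5:**
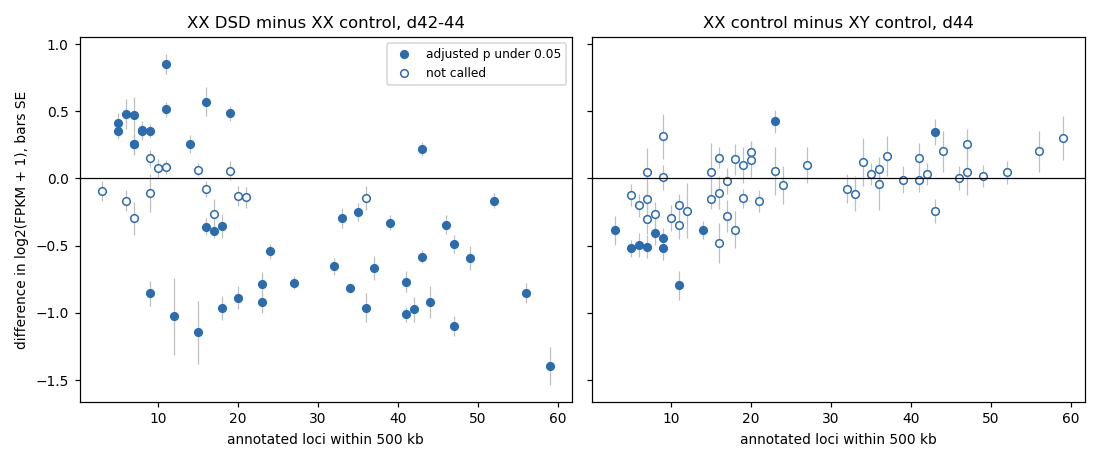
Difference in log2(FPKM + 1) of each tested member against the number of annotated loci within 500 kb, for XX DSD against XX control gonads at d42-44 (left) and XX against XY controls at d44 (right). Bars are SE and filled points have an adjusted p under 0.05. The correlation was -0.61 on the left and 0.63 on the right, and both panels share the d44 XX controls.

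Chromosome 9, which carries the insertion, holds 7 members: *MRPL38*, *MRPS7*, *MRPL10*, *MRPL27*, *MRPS23*, *MRPL41* and *MRPS2*, in order of position. In XX DSD gonads at d42-44, 6 of these 7 were lower, all but *MRPS23*, where 58.5% of 797 named loci on chromosome 9 and 38% of named loci on all chromosomes were lower. At d37-39, 2 of the 7 were lower, where 15.5% of named loci of the chromosome were. In XY littermates at d42-44 4 were lower, where 18.7% were.

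The other genes of mitochondrial translation were read from lists. In XX DSD gonads at d42-44, the further subunits of the mitochondrial ribosome had 3 of 6 lower and 0 higher, among them *GADD45GIP1* at -1.08 and *CHCHD1* at -0.30. Mitoribosome assembly and rRNA modification genes had 13 of 19 lower and 4 higher, with a median of -0.54, including *TRUB2*, a pseudouridine synthase, at -0.78 and *DHX30*, an RNA helicase, at -0.74. Mitochondrial tRNA synthetases had 6 of 14 lower and 1 higher, with *VARS2* at -0.71 and *TARS2* at -0.52. Translation factors had 3 of 14 lower and 2 higher: *TUFM*, the elongation factor Tu, fell by 0.62 and *LRPPRC*, which stabilizes mitochondrial mRNAs, was higher by 0.49. The background for these and the further list counts at d42-44 is again 29.2% lower and 19.3% higher over all loci. Among well-expressed named loci it is 43.9% lower and 29.5% higher, and the lists were not tested against either.

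Of the regulators of mitochondrial biogenesis at d42-44, 5 of 9 were lower and 3 higher. *TFAM*, which packages and transcribes mitochondrial DNA, had means of 58.5 and 32.7 FPKM, a difference of 0.82, and *GABPA*, a transcription factor of nuclear genes for mitochondrial proteins, 39.4 and 23.5 FPKM, 0.72. At d37-39, 3 of 9 were lower and 2 higher, and *POLRMT*, the mitochondrial RNA polymerase, had means of 6.36 and 13.3 FPKM, -0.96, and *MYC* 36.6 and 54.3 FPKM, -0.56. Cytosolic ribosomal proteins had 26 of 51 lower and 5 higher at d42-44, with *RPS15* at -0.87 and *RPS21* at -0.71, and 10 of 50 lower and 1 higher at d37-39, with *RPL13* at -0.98 and *RPS3A* at 0.41.

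At d37-39 the other lists moved less. The background for list counts at this age is 8.11% lower and 5.65% higher over all loci. Among well-expressed named loci it is 13.5% and 12.4%. Further ribosome subunits had 1 of 6 lower and 0 higher, *GADD45GIP1* at -0.86. Translation factors had 1 of 14 lower, *TACO1* at -0.51, and 2 higher, with *LRPPRC* at 0.37. Assembly genes had 5 of 19 lower and 1 higher, with *MTG2* at -0.47 and *MALSU1* at 0.30, and tRNA synthetases 4 of 14 lower and 1 higher, with *HARS2* at -0.37 and *FARS2* at 0.27.

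The 13 mRNAs of the mitochondrial genome, which this ribosome translates, were assembled into 4 loci. In XX DSD gonads at d42-44 all 4 were higher than in XX controls, among them that of *ATP6*, *COX1* and 7 other mRNAs at 0.70 ± 0.07 and *ND6* at 0.94 ± 0.13 (limma, adjusted p = 0.0003). At d37-39 1 of 4 was higher, *ND6*, by 0.49. Of well-expressed named loci, 29.5% were higher at d42-44 and 12.4% at d37-39. Between XX and XY controls all 4 were lower in XX gonads at both ages, *ND6* by -1.04 at d37-39 and by -1.12 at d44. Of well-expressed named loci, 20.2% were lower at d37-39 and 17.5% at d44. In XY littermates against XY controls at d42-44, 0 of 4 passed in either direction. The kit selects polyadenylated RNA, which carries mitochondrial mRNAs only in part. The *ND6* locus holds 2 gene names and the kit does not mark strand, so its values are not assigned to this mRNA alone.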

How the data were processed

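RNA-seq was made from 55 gonad libraries with a polyA-selecting kit that does not mark strand. Per the labels and the study's methods, the authors trimmed reads (cutadapt), aligned them to CanFam3 with TopHat2 2.0.13, assembled transcripts with Cufflinks 2.2.1 and deposited FPKM per assembled locus from Cuffnorm, which scales across libraries, together with the coordinates of the assembly. Submitters' notes name cutadapt 1.5. No counts were used here. Relative depth was read from annotated genes, as the commonest ratio of FPKM values up to 0.15 between a library and reference libraries. Estimates from different references ran 1 apart on the log2 scale for C3512 and 1.01 for C3694. The deepest library was 6.59 times as deep as the shallowest, so that low values are the least precise in shallow libraries.

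Members were chosen by gene name, and the members and gene lists were chosen with earlier results of these data known. Loci on the strand opposite to the gene of that name were kept apart. Group labels came from the sample records and litters from the study's methods. Each comparison was a two-sided test in limma 3.58.1 under R 4.3.3, by lmFit and eBayes with a trend, on log2(FPKM + 1), over loci with a mean of 1 FPKM or more in either group, and p-values were adjusted by Benjamini and Hochberg over all of them. Fold changes on this scale understate the change of low genes. Embryos share litters, so p-values measure the spread between embryos of few litters. The script was tested on simulated data. Named genes were, in each comparison, up to 6 called members with the lowest adjusted p, up to 3 called in the direction fewer members took, the 5 highest and 3 lowest by mean FPKM, *MRPS12*, *MRPL38*, *MRPS18A* and *MRPS18B*, and up to 2 genes per further list. Other members named were chosen after their values were seen. Alternatives changed the pseudocount (0.1), the filter, the scaling of libraries, the variance trend, the treatment of litter, the age of embryos, corrections for gene density and transcript length in 20 bins, and left out each library in turn. Counting the 2 opposite-strand loci with the members, and fitting litter as a fixed factor over the litters that hold both sexes, were alternatives added after seeing the data. Tables and figures were made with Python 3.11.15, pandas 2.3.3, numpy 2.4.6 and matplotlib 3.10.9.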

Additional observations from a re-analysis of the deposited data

Results flagged for a closer look

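Among 62 sets of library values for named members and the member median, 5 held a library far from the others of its group by Dixon's criterion, and chance gives about 1 in 20. The *MRPL21* level of control A1099 at d37-39 was 58.39 FPKM, whereas the other XY controls were at 41.64 to 46.84 FPKM. *MRPL21* was also apart in XY littermate C3516 of d37-39, at 39.57 FPKM against 24.49 to 27.1 FPKM in the others. *MRPS11* stood at 43 FPKM in XX control A1088 of d37-39, and the other XX controls were at 33.21 to 36.18 FPKM. *MRPS35* stood at 48.32 FPKM in XX control A1101 of d37-39, against 35.46 to 39.08 FPKM. The median log2(FPKM + 1) over all members was 5.109 in XY littermate C3637 of d37-39 and 5.249 to 5.298 in the other littermates of that age.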

How the results depend on the processing

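Of 135 counts of called members under alternatives other than single libraries left out, 107 stayed within 1.5 times the reported count, and no named member changed sign. A count of 0 that stayed 0 is among the 107. Both comparisons between ages and both interaction tests had a reported count of 0, so the tally says little about the other counts. In XX gonads at d37-39, where 17 members were called, 30 passed under quantile normalization, 8 with a random effect of litter, 0 with 1 value per litter, and 12 to 20 with single libraries left out. In XX gonads at d42-44, with 46 called, the count was at most 48 and was lower after the density correction given above. It was between 42 and 47 with single libraries left out. The fit with 1 value per litter left a single control value and is not read, and no alternative left out that control litter. The split of 31 lower and 15 higher became 27 and 18 under median scaling, which moved the median of all loci from -0.09 to 0.04. In XY gonads at d37-39, with 2 called, 4 passed with a pseudocount of 0.1, 5 with a minimum of 4 FPKM, 23 under quantile normalization, 1 after the density correction, 1 with d39 embryos alone, and 0 under no filter, median scaling, the length correction, no trend, the litter block or 1 value per litter, and 0 to 18 with single libraries left out. The median of all loci was 0.34 there and -0.46 under median scaling, so the direction of a typical locus turned with the scaling. In XY gonads at d42-44, with 17 called, 28 passed with the litter block, where a negative correlation within litters narrowed the SE. The count was 8 after the length correction, 1 after the density correction and 3 without littermate C3522. It was 0 without a filter, without trend or without the d41 embryo, and 0 to 17 with single libraries left out. The fit with 1 value per litter left a single control value and is not read. Between controls of d37-39, with 13 called, 8 passed under median scaling, 4 with d39 embryos alone and 2 with 1 value per litter, and 10 to 17 with single libraries left out. Between controls of d44, with 11 called, 6 to 16 passed with single libraries left out. At d35, with 15 called, 2 passed with 1 value per litter, 3 with litter as a fixed factor over the litters that hold both sexes, and 7 to 42 with single libraries left out. Between ages of XX controls, 1 passed under quantile normalization and 1 after the length correction, against 0. Apart from the alternatives with fewer samples, the cause of these shifts was not tested.

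The labels carry embryo numbers and no replicate numbers that groups share, and litters, taken from the study's methods, served for pairing. The litter block was not fitted between controls of d44, which are 1 litter. The table of annotated genes served only for relative depth, and the alternatives on it and on promoter sequence were not run. Depth limits the low members most: *MRPS34* was under 4 FPKM in all XX DSD libraries from d37-39 on.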
